A study of Mus musculus with 2 samples.

Results

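Cytokines of the interleukin and interferon families act on NK cells through Janus kinases (JAKs) and STAT transcription factors. A JAK is bound to the inner part of a receptor chain and becomes active when a cytokine brings chains together. The active kinase phosphorylates STAT proteins, which pair, enter the nucleus and switch on target genes, among them genes of the SOCS family that shut the signal off again. NK cells depend on this route for survival, through IL-15 and STAT5, and for interferon gamma production, through IL-12 and STAT4. The 9 genes described here are Stat2, Stat3, Stat4, Stat5a, Stat5b and Stat6 and the kinase genes Jak1, Jak3 and Tyk2. They were taken by name, and every probe set annotated to 1 of them and to no other gene was used, which gave 19 of the 45101 probe sets on the array. They are 9 of the 18194 genes that had such a probe set, and all 9 read above the detection limit of both arrays.

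Livers were taken from B6 wild-type mice that were naive. Cells positive for NK1.1 and negative for CD3 were sorted by flow cytometry into a DX5- and a DX5+ population. DX5 is an antibody to the integrin alpha 2 chain, NK1.1 marks NK cells and related innate lymphocytes, and CD3 marks T cells. There was 1 Affymetrix array per population, so no value has a spread between samples, no difference was tested and every fold describes these arrays. Array batch and population cannot be told apart, and how many mice each array stands for is not stated in the labels. Intensities are MAS5 signals on a linear scale, in arbitrary units. They compare 1 probe set between arrays and do not rank genes by level. The log2 ratio is DX5- minus DX5+.

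The detection limit was 76.0 for DX5- cells and 82.2 for DX5+ cells, set from 151 probe sets of genes with little use outside sensory organs, hair and lens. Of 10652 detected genes, 3.76% were higher in DX5- cells by 2-fold or more and 5.65% were lower by as much. When the arrays were scaled to the 18 hybridisation spike-in controls, these shares became 6.55% and 3.69% and the median of all genes moved from -0.02 to 0.19 on the log2 scale. Of 9 detected markers of NK cells and ILC1, the tissue-resident innate lymphocytes close to NK cells, 7 were within 1.5-fold. The exceptions were Klrd1 (CD94), at 15828 in DX5- cells and 9282 in DX5+ cells, and Prf1 (perforin), at 3108 and 8978 in the same order. All 6 markers of liver-resident cells were higher in DX5- cells by 2-fold or more, among them Cxcr6 at 7425 against 772 and Itga1, at least 12.1-fold higher. Of 7 markers of circulating NK cells 6 were lower by 2-fold or more, among them Cma1 at 476 against 6468 and S1pr5 at 35.8, below the limit, against 1531. Both lists were chosen with earlier results of these data known, so their counts are no independent check of what the populations are. Il21r is on the liver-resident list and is counted again below among the gamma chain receptors. Itga2, which encodes the chain that DX5 binds, was at 29.0, below the limit, in DX5- cells and at 105 in DX5+ cells.

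Of the 9 STAT and JAK genes, 1 was higher in DX5- cells by 2-fold or more (Jak3), 2 were lower by 2-fold or more (Stat5a and Stat5b) and 6 were within 1.5-fold. Over all detected genes 9.41% were 2-fold apart in either direction and 24.9% were 1.5-fold apart, 10.7% higher and 14.1% lower in DX5- cells. The median log2 ratio was -0.27 for the 9 genes and -0.02 for all detected genes. Log2 ratios of probe sets of the same gene differed with an SD of 0.34 over 4397 genes, with 0.42 over the 1100 dimmest and 0.24 over the 1100 brightest of them. That SD covers differences between probe sets only and leaves out differences between sorts, labellings and mice.

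**Figure D1:**
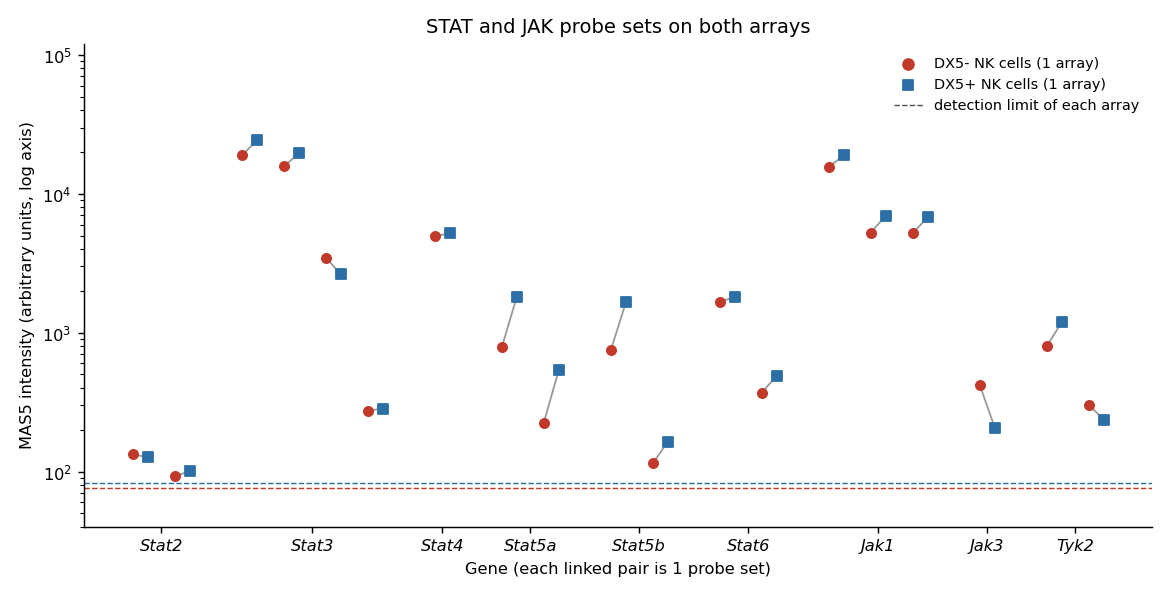
MAS5 intensity (log axis) of the 19 probe sets of the STAT and JAK genes on the DX5- array (red circles, left of each pair) and the DX5+ array (blue squares); dashed lines are the detection limits, 76.0 and 82.2. Both Stat5a pairs and the brighter Stat5b pair drop on the DX5- side, the Jak3 pair lies higher there, and the other pairs are closer to level.

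STAT5a and STAT5b are near-identical proteins that carry the signals of IL-2, IL-7 and IL-15, the cytokines that keep NK cells alive. Both genes were lower in DX5- cells. The brighter Stat5a probe set read 782 in DX5- cells, against 1822 in DX5+ cells, 2.33-fold lower in DX5- cells (log2 ratio -1.22). The dimmer one read 224 in DX5- cells, against 539 in DX5+ cells, 2.41-fold lower. The pair of Stat5a probe sets thus gave the same size of difference at unlike brightness. Of all detected genes 3.68% were lower in DX5- cells by at least as much as Stat5a.

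Stat5b read 748 in DX5- cells, against 1650 in DX5+ cells on its brighter probe set, 2.21-fold lower in DX5- cells (log2 ratio -1.14). Its other probe set read 115 in DX5- cells, against 164 in DX5+ cells, 1.43-fold lower. That probe set lay close to the limit, at 1.51 times it on the DX5- array. With the mean over probe sets the log2 ratio of Stat5b was -0.83, and with spike-in scaling it was -0.92, so its place past 2-fold was lost under both. All 4 Stat5 probe sets are of a kind designed to detect several transcripts of their gene, and cross-hybridisation between the paralogues was not tested. Their ratios may therefore not be independent of each other. Markers of platelets and macrophages, both of which can hold Stat5 transcripts, were lower in DX5- cells too. Summed intensities were 1152 against 5883 for platelets and 1392 against 5839 for macrophages. Such sums weigh the brightest probe sets most and include values under the limit. The part of platelets and macrophages in the Stat5 values was not tested.

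Stat5b, Stat5a and Stat3 stand side by side on mouse chromosome 11 in the RefSeq annotation of GRCm38.p6. Of the 10 nearest protein-coding neighbours, 5 on each side, 6 were detected. The 4 detected on both arrays had log2 ratios from -0.01 to 0.15. All of these but Rab5c lay close to the limits, with Hcrt at 115 in DX5- cells and 103 in DX5+ cells and Ghdc at 104 in both. A moderate difference in Hcrt, Ghdc or Atp6v0a1 would thus be hard to see here. Naglu and Coasy were detected in DX5- cells only, so that only a lower bound was had for them. Coasy read 118 in DX5- cells, against 52.2 in DX5+ cells, at least 1.43-fold higher, and a 2-fold difference in it is not denied. Rab5c, a vesicle traffic GTPase on the Stat5b side, read 3507 in DX5- cells, against 3458 in DX5+ cells. Atp6v0a1, a proton pump subunit on the Stat3 side, read 127 in DX5- cells, against 129 in DX5+ cells. The neighbours were chosen by position alone, after the Stat5 values were known.

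The promoter windows of RefSeq (GRCm38.p6; 250 bases before to 50 after an annotated start) hold 2 starts each for Stat5a and Stat5b. A pair of these windows is shown because they share a run of letters. Each belongs to the downstream of the listed starts of its gene, so the printed bases lie past the gene's other listed start. The 250 bases before the start are printed in the direction of transcription. Capitals mark the longest run of letters that a Stat5a and a Stat5b window have in common within these 250 bases. The 50 bases after the start were not compared. The Stat5a stretch lies at chr11:100860234-100860483 on the plus strand and the Stat5b stretch at chr11:100822571-100822820 on the minus strand.
Stat5a: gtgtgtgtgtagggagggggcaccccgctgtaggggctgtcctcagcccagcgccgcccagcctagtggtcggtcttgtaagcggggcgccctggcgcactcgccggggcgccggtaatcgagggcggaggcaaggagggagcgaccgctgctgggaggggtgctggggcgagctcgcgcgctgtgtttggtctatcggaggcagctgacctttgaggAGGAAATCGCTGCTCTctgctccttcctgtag
Stat5b: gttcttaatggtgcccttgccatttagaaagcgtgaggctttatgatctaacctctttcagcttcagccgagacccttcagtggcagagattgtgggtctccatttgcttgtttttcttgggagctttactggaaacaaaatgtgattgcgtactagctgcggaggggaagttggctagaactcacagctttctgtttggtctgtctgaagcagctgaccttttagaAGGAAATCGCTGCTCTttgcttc
The shared run is 16 bases long. It occurs on either strand in 2 of the 32851 windows of the table, those of Stat5a and Stat5b. This describes the sequence and says nothing of how either gene is controlled.

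The other STAT genes were close to level. STAT3, which carries the signals of IL-6, IL-10 and IL-21, had 4 probe sets. The brightest read 18882 in DX5- cells, against 24269 in DX5+ cells, 1.29-fold lower in DX5- cells, and the next 15746 and 19527. The dimmest read 274 in DX5- cells, against 284 in DX5+ cells. The remaining one ran the other way, at 3479 in DX5- cells and 2640 in DX5+ cells, 1.32-fold higher. Stat3 log2 ratios thus lay between -0.36 and 0.40 and its probe sets did not share 1 direction.

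STAT4 is the factor of IL-12 signalling. Its 1 probe set read 4947 in DX5- cells, against 5207 in DX5+ cells, a log2 ratio of -0.07. STAT6, the factor of IL-4 signalling, was represented by a probe set at 1667 in DX5- cells and 1812 in DX5+ cells (log2 ratio -0.12). A dimmer Stat6 probe set read 370.0 in DX5- cells, against 490 in DX5+ cells, 1.33-fold lower. With spike-in scaling Stat4 and Stat6 moved to the other side of 0, at 0.14 and 0.10, so no direction is given for them. STAT2, which works in type I interferon signalling with Irf9, read 133 in DX5- cells, against 127 in DX5+ cells. Its other probe set read 92.2 in DX5- cells, against 101 in DX5+ cells. Stat2 lay within 1.75 times the limit throughout, so a moderate difference in Stat2 would be hard to see here.

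The Janus kinase genes went different ways. JAK3 binds the common gamma chain, the receptor subunit shared by IL-2, IL-4, IL-7, IL-9, IL-15 and IL-21. Its 1 probe set read 419 in DX5- cells, against 206 in DX5+ cells, 2.04-fold higher in DX5- cells (log2 ratio 1.03). Of all detected genes 3.54% were higher by at least as much. The values were dim, at 5.52 times the limit on the DX5- array and 2.50 times on the DX5+ array, and with a pseudocount of 32 the log2 ratio was 0.92, short of 2-fold. Another 2 probe sets are annotated to Jak3 together with Insl3 and are no members. The brighter of them read 481 in DX5- cells, against 338.5 in DX5+ cells, 1.42-fold higher, and the dimmer one was below both limits. T cells transcribe Jak3, and the 10 T cell markers on the array summed to 26195 in DX5- cells and 10982 in DX5+ cells, with Cd4 below both limits. Cd3g alone gave 14036 and 1072 of these sums, and the next brightest marker, Cd28, named after its values were seen, ran the other way at 7668 and 8442. The sort had taken cells without CD3 on their surface. The part of T cells in the Jak3 value was not tested.

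JAK1 pairs with JAK3 on the IL-2 family receptors and also serves interferon and IL-6 family receptors. Its 3 probe sets read lower in DX5- cells by similar amounts. They gave 15647 in DX5- cells against 18924 in DX5+ cells, 5265 against 6977, and 5206 against 6784. The folds lay between 1.21 and 1.33, under 1.5-fold on each probe set. With spike-in scaling the log2 ratio of Jak1 went from -0.27 to -0.06, so little of this difference remained. TYK2 binds chains of the IL-12, IL-10 and type I interferon receptors. Its brighter probe set read 800.4 in DX5- cells, against 1198 in DX5+ cells, a log2 ratio of -0.58 that stayed just short of 1.5-fold. The dimmer Tyk2 probe set ran the other way, at 301 in DX5- cells and 237 in DX5+ cells. With the mean over both Tyk2 probe sets the log2 ratio was -0.12.

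**Figure D2:**
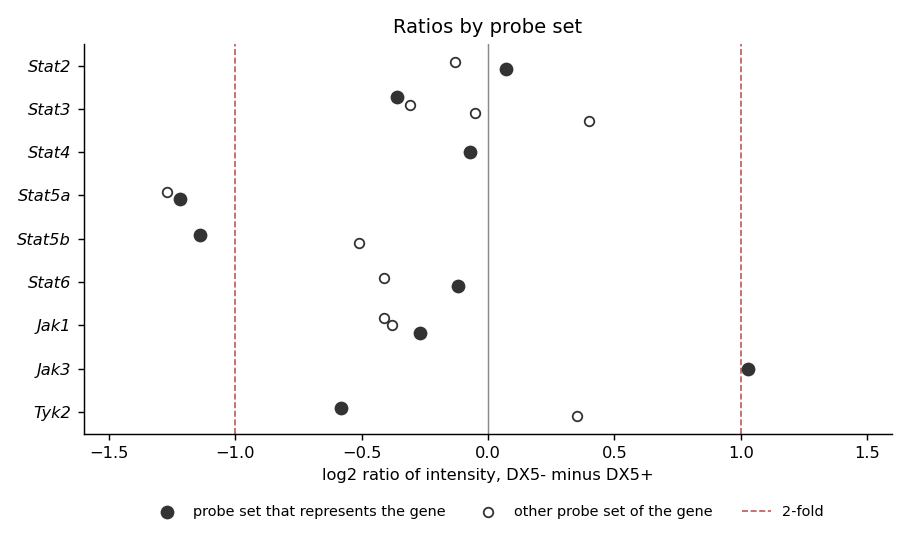
Log2 ratio (DX5- minus DX5+, horizontal axis) of each probe set by gene; filled points are the probe sets that represent the gene, open points its others, and dashed lines mark 2-fold. Stat5a lies past 2-fold on both probe sets (-1.22 and -1.27), Stat5b on 1 of 2, Jak3 at 1.03, and the open and filled points of Stat2, Stat3 and Tyk2 straddle 0.

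**Figure D3:**
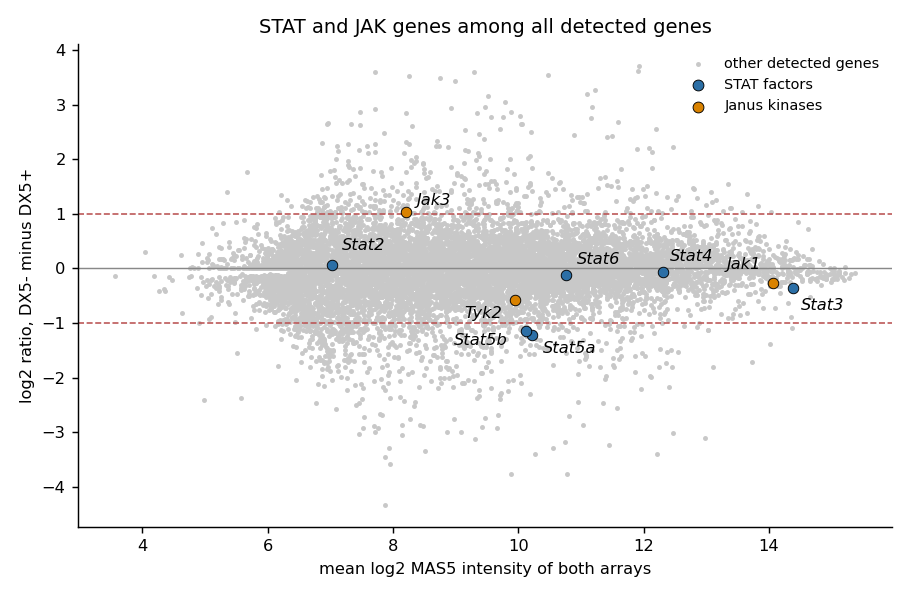
Log2 ratio (vertical axis) against mean log2 intensity of both arrays (horizontal axis) for the 10652 detected genes (grey), with STAT genes in blue and Janus kinase genes in orange; dashed lines mark 2-fold. Stat5a and Stat5b lie together below the lower line, Jak3 lies on the upper line, and Stat3, Stat4 and Jak1 sit among bright genes near 0.

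The receptor chains that recruit these kinases were set beside them. Of 6 detected receptors of the common gamma chain family, 3 were higher in DX5- cells by 2-fold or more and 0 lower by that much. Their median log2 ratio was 1.14. Il21r, the IL-21 receptor, read 6412 in DX5- cells, against 829 in DX5+ cells, and Il4ra, the IL-4 receptor alpha chain, 7150 and 2502 in the same order. Il2ra, the chain that raises the affinity for IL-2, read 377 in DX5- cells, against 139 in DX5+ cells. The chains for IL-15, named after their values were seen, were level. Il2rb read 12977 in DX5- cells, against 13955 in DX5+ cells, and Il15ra 318 and 328. The common gamma chain gene had no probe set of its own in the annotation used, so JAK3's own docking chain was not analysed here.

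Receptors of the IL-12, IL-6 and IL-10 families were split, with 2 of 7 detected higher in DX5- cells by 2-fold or more and 3 lower. The median was -0.86. Il12rb1, the chain that binds TYK2 for IL-12 and IL-23, read 628 in DX5- cells, against 165 in DX5+ cells, 3.80-fold higher. Its partner Il12rb2 read 199 in DX5- cells, against 411 in DX5+ cells, 2.06-fold lower. Thus the IL-12 receptor chains lay on opposite sides of 0 while Stat4 was level. Il27ra read 1214 in DX5- cells, against 417 in DX5+ cells, and Il10ra 943 and 2472. Il6ra read 66.4 (under the limit) in DX5- cells and 173 in DX5+ cells, at least 2.28-fold lower, while its other probe set ran slightly the other way. Of 4 detected interferon receptor genes 0 were 2-fold apart on the probe sets that represent them. Among them Ifngr1, of the interferon gamma receptor, read 14915 in DX5- cells, against 18620 in DX5+ cells, and Ifnar2, of the type I interferon receptor, 2938 and 2446. Only 1 of the 3 Ifnar2 probe sets ran that way. For Ifnar1, named after its values were seen, the log2 ratio was -0.39, and its other probe set was past 2-fold, at -1.01. Ifngr2, also named after its values were seen, read 62.4 in DX5- cells, under the limit, and 83.6 in DX5+ cells. It was at least 1.10-fold lower, and a 2-fold difference in it is not denied.

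The list of cytokine genes that signal through JAKs was added after values had been seen. Of 20 such genes 9 were detected, 2 of them higher in DX5- cells by 2-fold or more and 2 lower. Il2 read 507 in DX5- cells. In DX5+ cells it read 61.8, which is below the limit, so it was at least 6.16-fold higher in DX5- cells. Csf2 (GM-CSF) was at 697 in DX5- cells and 183 in DX5+ cells. Il6 read 114 in DX5- cells, against 1158 in DX5+ cells, and Osm (oncostatin M) 214 and 697. Transcripts of the cytokine and of its alpha receptor chain were thus both higher in DX5- cells for IL-2.

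The genes of inhibitors that act on JAKs and STATs were counted by family. Of 8 SOCS genes 3 were higher in DX5- cells by 2-fold or more and 1 was lower. The median log2 ratio was 0.07. Socs2 read 7828 in DX5- cells, against 1215 in DX5+ cells, 6.44-fold higher, and its 3 probe sets above both limits ran the same way. Cish, which encodes CIS, an inhibitor of IL-15 signalling in NK cells, read 9482 in DX5- cells, against 2161 in DX5+ cells, 4.39-fold higher. Socs1, which blocks JAK kinase activity, read 557 in DX5- cells, against 198 in DX5+ cells. Socs4 was the 1 gene lower by 2-fold or more, at 547 in DX5- cells and 1357 in DX5+ cells. Its 4 probe sets were all lower, with log2 ratios from -1.31 to -0.08. In all, 5 of the 8 SOCS genes had a log2 ratio above 0 and 3 below, and 2 were lower by 1.5-fold or more. Socs3, a STAT3 target named after its values were seen, read 11187 in DX5- cells, against 10888 in DX5+ cells.

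Genes of phosphatases and adaptors that limit JAK signalling were level on the probe sets that represent them, with 0 of 6 past 1.5-fold. Ptprc (CD45) read 29891 in DX5- cells, against 32390 in DX5+ cells, and Ptpn2, a phosphatase of JAK1 and JAK3, 10345 and 8238. The other Ptprc probe set, above both limits, was past 1.5-fold lower in DX5- cells, at a log2 ratio of -0.85. Of 4 PIAS genes, which encode inhibitors of STATs in the nucleus, 0 were past 1.5-fold. Pias1 read 3974 in DX5- cells, against 2824 in DX5+ cells, and Pias2 1402 and 1066.

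Of 13 detected genes known as STAT5 targets, 5 were higher in DX5- cells by 2-fold or more, 1 was lower by as much and 5 were within 1.5-fold. A log2 ratio above 0 was found for 12 of the 13, beside 5062 of all 10652 detected genes. The median was 0.84, or 1.06 with spike-in scaling. The 5 were Cish, Socs1, Socs2 and Il2ra, given above, and Pim2, a survival kinase named after its values were seen, at 1302 in DX5- cells and 644 in DX5+ cells. Osm was the 1 lower gene. The list shares 3 genes with the SOCS family and 1 with the gamma chain receptors, so these counts are not separate evidence. The survival genes Bcl2 and Bcl2l1, also named after their values were seen, were 1.79-fold and 1.89-fold higher. Of the 5 Bcl2 probe sets 3 ran that way.

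**Figure D4:**
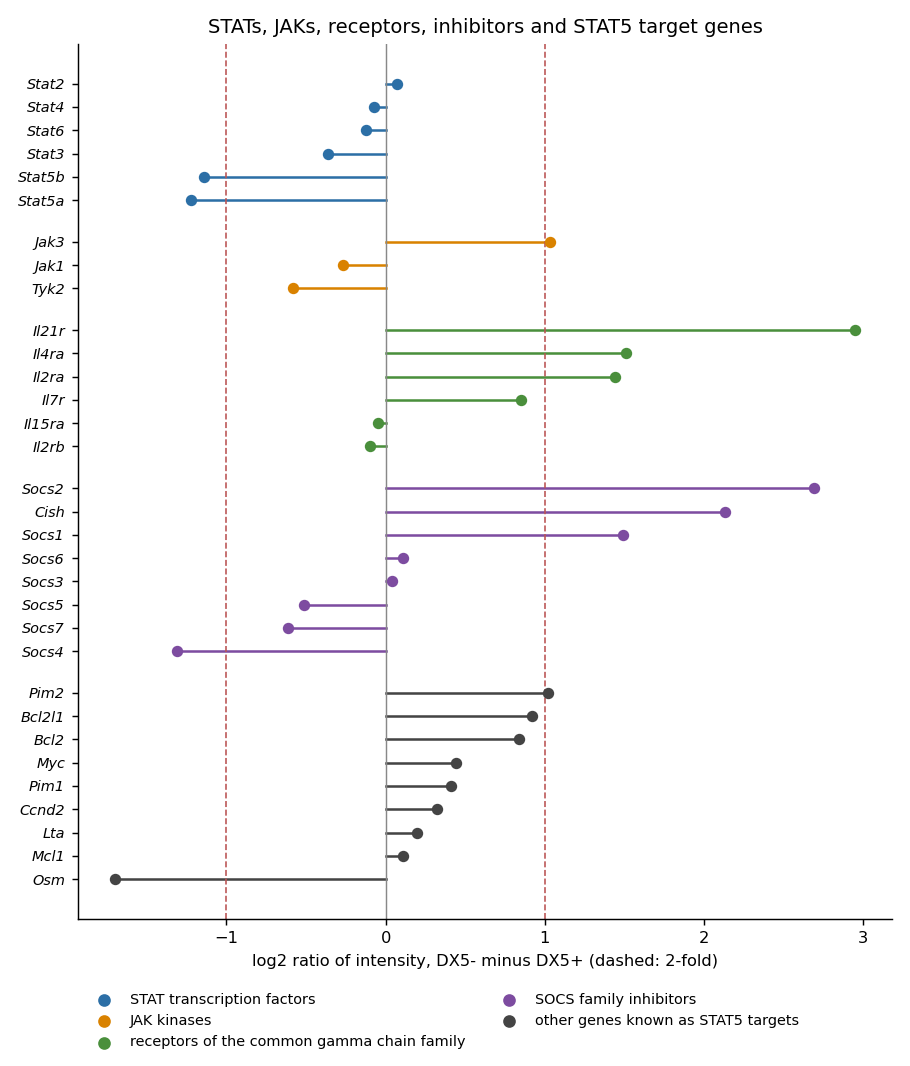
Log2 ratio (DX5- minus DX5+, horizontal axis; dashed lines mark 2-fold) of the STAT and JAK genes, gamma chain family receptors, SOCS genes and further genes known as STAT5 targets. Stat5a and Stat5b point left, at -1.22 and -1.14, while Il21r, Socs2, Cish, Socs1 and most STAT5 target genes point right. Socs4, at -1.31, and Osm, at -1.70, also point left past 2-fold.

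The letters TTCNNNGAA, the core of the element that STAT5 binds, were searched in the same RefSeq windows; the pattern reads alike on both strands. It occurs in 8.30% of all 32851 windows. None of the 12 windows of the 9 STAT and JAK genes holds it (0 of 12). Of the 18 SOCS and STAT5 target genes listed, 11 have a window and 3 of these hold the letters: Cish, Socs3 and Lta. A stretch of 30 bases is shown for the SOCS genes, with the matches in capitals, from chr9:107296654-107296683 on the plus strand for Cish and chr11:117969502-117969531 on the minus strand for Socs3.
Cish: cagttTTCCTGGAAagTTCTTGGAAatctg
Socs3: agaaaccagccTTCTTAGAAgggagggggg
Cish, with 2 matches, was 4.39-fold higher in DX5- cells, and Socs3, with 1, was level. Lta, which also has 2 matches, was 1.15-fold higher, so the number of matches did not go with the fold among these 3 genes. The wider spacing TTCNNNNGAA, favoured by STAT6, occurs in 6.95% of windows and in 1 of the 12, that of Stat2. A match in these letters is no evidence of binding.

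Targets of the other STATs were mixed. Of 8 detected genes known as STAT4 targets, 0 were higher in DX5- cells by 2-fold or more and 3 were lower. Their median was 0.31 and their mean -0.27. The 3 lower genes were receptor chains, Il12rb2 and the IL-18 receptor genes Il18r1, at 1318 in DX5- cells and 5398 in DX5+ cells, and Il18rap, at 2377 and 7215. Of 9 detected STAT3 targets 2 were higher by 2-fold or more, Junb at 17757 in DX5- cells and 6117 in DX5+ cells and Fos at 14258 and 6890, and 0 were lower. The median was 0.61. Junb and Fos are also immediate early genes. Of 6 detected STAT6 targets 2 were higher by 2-fold or more, Il4ra and Arg1 (299 in DX5- cells and 82.6 in DX5+ cells). Chil3, at 45.2 in DX5- cells, below the limit, and 163 in DX5+ cells, was at least 2.14-fold lower. The median of these 6 was -0.02 and their mean 0.29. Of 12 detected interferon-stimulated genes, known targets of type I interferon signalling, 0 were higher by 2-fold or more and 1 was lower. The lower gene was Usp18, a brake on interferon signalling, at 86.6 in DX5- cells and 373 in DX5+ cells. Rsad2 read 1380 in DX5- cells, against 1769 in DX5+ cells, and Ddx58 1410 and 1280. The median of the 12 was -0.18.

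Counted once each, 76 genes of these receptor, inhibitor and target lists were detected, without the added cytokines. Of them 12 were higher in DX5- cells by 2-fold or more and 9 lower, or 17 and 6 with spike-in scaling.

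Markers of other cells moved between the arrays. In bulk samples fewer cells of a type and less RNA per cell cannot be told apart. All 7 platelet markers were at least 2-fold lower in DX5- cells, among them Clec1b (98.7 against 815) and Ppbp (251 against 1868). Of 13 macrophage and Kupffer cell markers 8, including Clec4f, C1qa, Timd4 and Marco, were below both limits, and 4 of the 5 detected were at least 2-fold lower, such as Lyz1 (323 against 2070) and Mpeg1 (516 against 2190). Of 7 neutrophil markers 3 were at least 2-fold lower (sum 3859 against 9740), among them Ngp (343 against 1010) and S100a9 (1020 against 2958). The part of neutrophils in the Stat5 values was not tested. Neither was the part of macrophages and neutrophils in the Il6, Osm, Il6ra and Chil3 values.

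Of 9 detected T cell markers 5 were at least 2-fold higher in DX5- cells. Cd3g read 14036 in DX5- cells, against 1072 in DX5+ cells, and Camk4 899 and 190. T cells transcribe Il2, Il2ra and Il21r as well, and the part of T cell RNA in these values was not tested. B cell markers (sum 1682 in DX5- cells and 1764 in DX5+ cells, 0 of 4 detected 2-fold apart) included Blnk at 682 and 1058 and Cd79b at 375 and 282. Of 4 detected hepatocyte markers 1 was at least 2-fold lower, Ttr at 210 in DX5- cells and 467 in DX5+ cells, beside Alb at 836 and 1262 (sum 1394 and 2183).

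**Figure D5:**
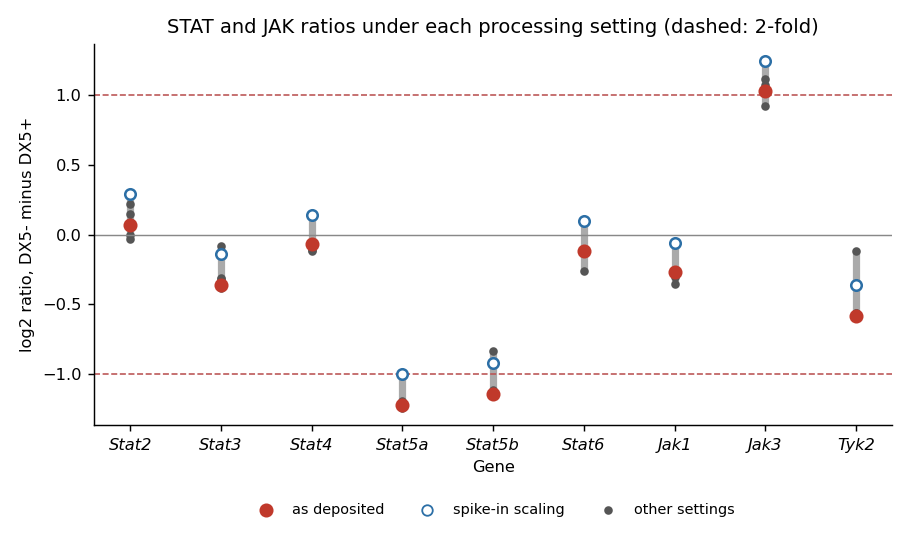
Log2 ratio (vertical axis) of each STAT and JAK gene as deposited (red), with spike-in scaling (open blue) and under the other settings (grey points; bar, full range); dashed lines mark 2-fold. Stat5a ranged from -1.24 to -1.0, Stat5b from -1.14 to -0.83 and Jak3 from 0.92 to 1.24, with no change of sign.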

How the data were processed

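The authors deposited 1 intensity per probe set and array, made with MAS5 per the submitters' processing notes; the sources used here give no version. The mean without the lowest and highest 2% of values was 500.0 on both arrays. The table has no detection calls, and the single array per population limits precision. Median intensity was 70.3 for DX5- cells and 78.0 for DX5+ cells, and the 3' to 5' ratio of the actin control 1.73 and 1.62. All 18 spike-in controls read lower on the DX5- array (median log2 ratio -0.22).

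Of 45101 probe sets, 34958 had 1 gene symbol in the platform annotation; 34754 matched a RefSeq gene by identifier. A gene takes its values from the probe set brightest on average. Intensities were taken to log2 without an offset. The detection limit of an array was the 95th percentile of 151 probe sets for opsins, crystallins, keratin-associated proteins and receptors of smell, pheromones and taste. The 3 probe sets of Crybg1, Crybg2 and Crybg3, which are no lens crystallins, were left out after their values were seen. A value under its limit was raised to the limit, which gives an "at least" fold. Sums over a marker list were instead made of the values as deposited, also those under a limit.

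The genes described and the lists were chosen with earlier results of these data known. Every STAT and JAK probe set is named. Of each pathway list the genes at least 2-fold apart are named, at most 4, with the 2 brightest where fewer than 2 qualified; of each marker list the 2 with the largest ratio. Genes outside this rule are marked, apart from markers named as below the limit and neighbours on the chromosome. No test was made. The steps were tested on simulated data. Python 3.11.15, pandas 2.3.3 and statsmodels 0.14.6 were used.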

Additional observations from a re-analysis of the deposited data

How the results depend on the processing

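Under 10 other settings, and 1 added after seeing the data (the limit with the Crybg probe sets kept), the number of STAT and JAK genes at least 2-fold apart was 2 or 3 and the number at least 1.5-fold apart was 3. It was 2 with spike-in scaling and with the mean over probe sets (Stat5b lost) and with a pseudocount of 32 (Jak3 lost). A further alternative added after seeing the data left out all probe sets that can detect several transcripts; it removed Stat5a, Stat5b and Jak3 altogether, so that 0 genes were 2-fold and 0 were 1.5-fold apart. The median of the 9 log2 ratios lay between -0.30 and -0.06. Stat2, Stat4 and Stat6 changed sign among the settings (-0.03 to 0.29, -0.12 to 0.14 and -0.26 to 0.10). Between 17 and 25 of the genes in the pathway lists were 2-fold apart. The list of STAT5 targets had a median from 0.52 to 1.06, and the gamma chain receptors one from 0.85 to 1.36. The IL-12, IL-6 and IL-10 receptor list moved to -0.49 when the 99th percentile set the limit, and the added cytokine list, -0.55 as reported, ranged up to 0.16. Over all genes, 400 were at least 2-fold higher and 602 lower, against 698 and 393 with spike-in scaling and 1888 and 2838 with no limit. No replicate could be left out. No paired analysis was possible because each population had 1 array.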
